A study of Mus musculus with 10 samples.

Results

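Libraries of cortex from 10 mice were read here through 10 genes of the circadian clock: Arntl, Npas2, Per1, Per2, Per3, Cry1, Nr1d1, Nr1d2, Dbp and Ciart. The genes were chosen by name, though with earlier results of these data known, and all 10 were found among the 24972 genes of the deposited tables. All 10 also passed the filter on low counts, which kept 14378 genes. The questions were whether the libraries stood at the same point of the daily cycle and whether the genotypes differed in these genes.

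The clock is a feedback loop of transcription. ARNTL (also called BMAL1) pairs with CLOCK or with its relative NPAS2, binds E-box sequences and activates the Per and Cry genes, whose proteins return to the nucleus and repress that pair. The same pair activates Nr1d1 and Nr1d2, which encode the REV-ERB repressors of Arntl and Npas2, as well as Ciart, whose protein is a further repressor, and Dbp, whose protein acts on D-boxes of output genes. In nocturnal mice under a light and dark cycle the mRNAs of Dbp, Nr1d1, Nr1d2, Ciart and the Per genes reach their peak in the day or near dusk, and those of Arntl, Npas2 and Cry1 in the night or near dawn. The 7 former genes are called day genes below and the 3 latter night genes. Cortex carries a local clock that is set by the suprachiasmatic nucleus of the hypothalamus, and in it Per1 and Per2 can also be induced by neuronal activity and by glucocorticoids.

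The libraries came from 5 Atad3 control and 5 Atad3 nKO male C57BL/6 littermates aged 2.5 months. All 10 mice were perfused with ice-cold PBS, and the frozen cortex gave total RNA for stranded libraries depleted of ribosomal RNA. What nKO stands for, the driver line, the deleted exons and the alleles of the controls are not spelled out in the labels, nor are the hour of dissection and the lighting schedule. Each library was 1 animal, named here by group and number, so spreads are between animals. Total estimated counts ran from 14812639 in nKO 5, the shallowest library, to 24161361 in control 3, the deepest. A clock gene had between 98.6 and 7573 counts in a library. Atad3a, the targeted gene, fell without overlap from 23.7 ± 1.87 to 11.5 ± 1.97 CPM (SD, 5 animals each; log2 fold change -1.04, edgeR adjusted p = 0.00634), so each library matched its label. The cortical markers Slc17a7 and Tbr1 were present in all 10 libraries. Of the markers of the suprachiasmatic nucleus, Six6 was at 0 in all 10 libraries and Avp, Nms, Prok2 and Lhx1 were at or below 0.60 TPM, whereas Vip, which cortical interneurons also express, was at 118 to 157 TPM. In bulk tissue fewer cells of a type and less RNA per cell cannot be told apart.

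Control 1 and nKO 4 stood apart from the other libraries and lay at the ends of the first principal component of all tested genes, which held 33.6% of the variance. The deposited effective lengths, which carry the quantifier's correction for sequence-dependent coverage, also differed in these libraries. For Per1 the effective length was 4397 bases in control 1 and 2189 bases in nKO 4, which is 1.47 and 0.73 of its mean over the libraries. The same ratios were 1.42 and 0.80 for Dbp and 1.22 and 0.81 for Nr1d1, but 0.99 and 0.98 for Arntl. CPM, a count relative to the library total, is scaled by TMM below and uncorrected for length unless a sentence says corrected, which means that the count was divided by this ratio. TPM takes the effective length into account, and is used wherever levels of different genes are compared.

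Promoters are shown because the loop described above acts on E-boxes, D-boxes and the AGGTCA site bound by ROR and REV-ERB proteins. The 6 of the 10 genes printed are those with a motif match in the 250 bases before a start. Dbp and Arntl, 1 of the strongly correlated pairs given below, had no match there and are not printed. Windows from 250 bases before to 50 bases after the start were found for 9 of the 10 genes in RefSeq (GRCm38.p6), with 11 windows in all. The motifs searched on both strands were CACGTG (E-box), CACGTT (E-box-like), TTATGTAA (D-box), AGGTCA (here ROR site, the core of the element of ROR and REV-ERB proteins) and TGACGTCA (CRE). None of these motifs can hold another of them. The 250 bases before the start are printed 5′ to 3′ along the gene, with motif matches in capitals, also where the match lies on the other strand.
Ciart (chr3:95882229-95882478, minus strand): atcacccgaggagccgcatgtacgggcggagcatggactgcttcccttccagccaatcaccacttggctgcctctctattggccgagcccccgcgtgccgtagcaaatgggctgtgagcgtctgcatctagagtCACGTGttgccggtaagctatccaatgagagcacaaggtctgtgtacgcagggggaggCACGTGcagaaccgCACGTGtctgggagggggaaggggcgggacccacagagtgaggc
Per1 (chr11:69098699-69098948, plus strand): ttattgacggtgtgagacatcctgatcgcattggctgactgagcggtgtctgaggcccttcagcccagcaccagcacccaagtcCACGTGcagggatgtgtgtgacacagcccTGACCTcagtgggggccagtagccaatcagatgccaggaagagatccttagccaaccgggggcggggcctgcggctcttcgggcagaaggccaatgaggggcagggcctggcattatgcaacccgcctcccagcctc
Per3 (chr4:151044666-151044915, minus strand): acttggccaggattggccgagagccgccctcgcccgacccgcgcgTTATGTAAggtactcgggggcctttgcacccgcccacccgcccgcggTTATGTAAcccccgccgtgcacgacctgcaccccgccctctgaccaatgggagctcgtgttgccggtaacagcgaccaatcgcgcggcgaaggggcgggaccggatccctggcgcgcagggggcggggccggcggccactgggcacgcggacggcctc
Cry1 (chr10:85185055-85185304, minus strand): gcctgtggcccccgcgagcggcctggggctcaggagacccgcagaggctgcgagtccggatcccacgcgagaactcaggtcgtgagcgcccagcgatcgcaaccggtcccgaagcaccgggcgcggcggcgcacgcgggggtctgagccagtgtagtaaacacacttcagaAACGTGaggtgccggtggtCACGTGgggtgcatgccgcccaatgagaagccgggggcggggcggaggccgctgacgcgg
Nr1d1 (chr11:98775378-98775627, minus strand): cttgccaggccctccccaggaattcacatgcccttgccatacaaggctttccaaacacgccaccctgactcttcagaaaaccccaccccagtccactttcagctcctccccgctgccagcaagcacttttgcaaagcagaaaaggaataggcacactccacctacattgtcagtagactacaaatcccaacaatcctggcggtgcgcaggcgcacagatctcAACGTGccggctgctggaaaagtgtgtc
Nr1d2 (chr14:18239107-18239356, minus strand): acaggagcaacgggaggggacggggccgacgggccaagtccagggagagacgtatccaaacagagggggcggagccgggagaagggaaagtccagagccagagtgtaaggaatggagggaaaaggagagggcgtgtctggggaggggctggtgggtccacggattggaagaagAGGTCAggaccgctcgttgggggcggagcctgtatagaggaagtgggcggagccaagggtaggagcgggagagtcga
Ciart held 3 E-boxes, at 116, 58 and 44 bases before its start. Per1 held 1 E-box at 166 bases and a ROR site on the other strand at 137 bases, and Cry1 held an E-box at 60 bases and an E-box-like match at 79 bases. Per3 held no E-box and 2 D-boxes, at 205 and 158 bases. Nr1d1 held an E-box-like match at 28 bases and Nr1d2 a ROR site at 77 bases. Of the 2 Arntl windows, 1 held a ROR site 31 bases after its start. The windows of Dbp and Npas2, a second one of Per1 and the other one of Arntl held none of the 5 motifs, which says only that these letters are not in these windows. Of all 32851 windows of this length, 7.15% held the E-box, 4.68% the E-box-like motif, 0.938% the D-box, 16.3% the ROR site and 1.79% the CRE. A match describes the letters and does not show binding.

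Nr1d2 was the most abundant of the 10 genes, at 147 ± 16.7 TPM (SD over 10 libraries), followed by Dbp at 96.4 ± 18.5 TPM and Arntl at 51.2 ± 7.07 TPM. A group of 3 came next, with Nr1d1 at 35.0 ± 11.2, Per1 at 33.4 ± 11.4 and Ciart at 33.2 ± 11.0 TPM. Cry1 (24.2 ± 2.66 TPM), Per3 (24.1 ± 2.34 TPM), Per2 (19.7 ± 5.71 TPM) and Npas2 (19.1 ± 3.34 TPM) were lowest. Only Nr1d2 lay above its next neighbour in every library without overlap of the ranges, and all other neighbours in this order overlapped. Dbp lay above Arntl in 9 of 10 libraries and Arntl above Nr1d1 in 9, whereas the order further down is not separated by the spread between animals.

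The genes also differed in how much they varied between libraries. Per1, Nr1d1 and Ciart varied 3.79-fold, 3.83-fold and 3.52-fold in CPM between the lowest and the highest library, and Dbp 3.32-fold. Without control 3 and nKO 5 these ranges were 2.88-fold, 2.19-fold, 2.20-fold and 2.20-fold. With the length correction and all 10 libraries they were 3.30-fold, 3.51-fold, 3.37-fold and 2.23-fold. Cry1, Per3, Nr1d2 and Arntl varied 1.38-fold, 1.40-fold, 1.47-fold and 1.54-fold. Per2 (2.13-fold) and Npas2 (2.08-fold, and 1.22-fold without control 3 and nKO 5) were between. In SD of log2 CPM over the 10 libraries, Per1 was at the 97.0th, Nr1d1 at the 96.6th, Ciart at the 95.9th and Dbp at the 90.5th percentile of all tested genes, and Cry1 at the 23.8th.

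**Figure D1:**
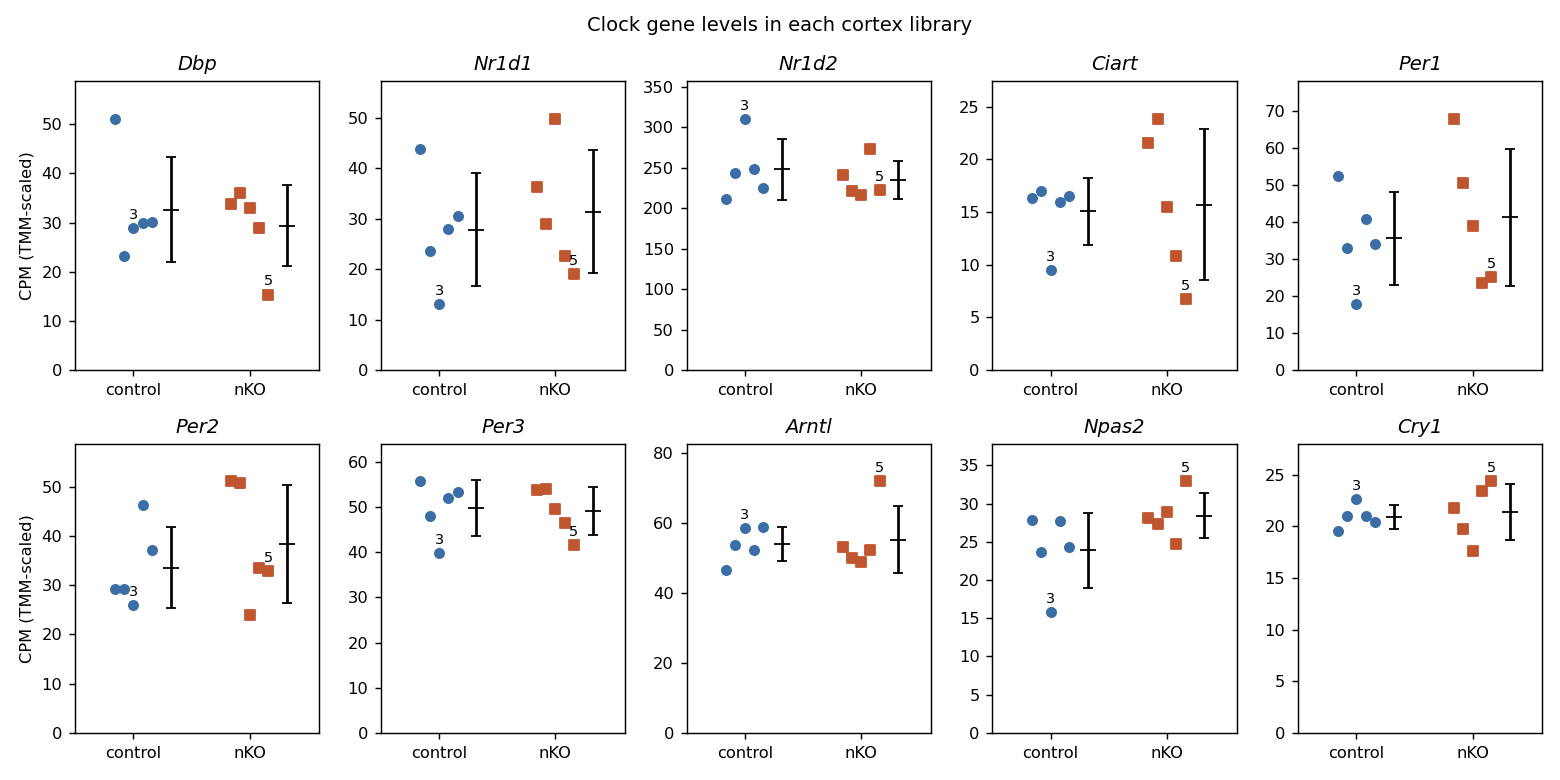
Level of each clock gene in TMM-scaled CPM (y axis, from 0) in the 5 control (circles) and 5 nKO libraries (squares), in the order of the library numbers, with the mean and SD of each group as bars. Control 3 and nKO 5 carry their number; nKO 5 is lowest for Dbp and Ciart and highest for Arntl, Npas2 and Cry1.

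Dbp (chromosome 7, 45705100 to 45710203, GRCm38), the PAR bZIP factor that relays the clock to output genes, stood at 51.1, 23.2, 28.9, 29.9 and 30.1 CPM in controls 1 to 5. In nKO 1 to 5 it stood at 33.7, 35.9, 32.9, 29.0 and 15.4 CPM. Control 1 was highest and nKO 5 lowest, and the other 8 libraries lay between 23.2 and 35.9 CPM in both groups. The log2 fold change of nKO over control was -0.15 (SE 0.24, edgeR adjusted p = 0.938). With the length correction control 1 came down to 36.6 CPM and the other controls lay between 24.5 and 31.4 CPM, while nKO 5 stayed lowest at 16.4 CPM, 0.509 of the median of the others. Exons of Dbp share 539 bases with those of Sphk2 on the opposite strand, whose mean was 12.8 CPM, and no source used here states whether strand was used in counting.

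Nr1d1 (chromosome 11, 98767932 to 98775377) encodes REV-ERB alpha. Controls 1 to 5 had 43.9, 23.5, 13.0, 28.0 and 30.6 CPM and nKO 1 to 5 had 36.4, 29.0, 49.9, 22.7 and 19.1 CPM. The lowest library was control 3 and the highest nKO 3, and the groups overlapped throughout; the log2 fold change was 0.18 (SE 0.32, edgeR adjusted p = 0.945). Nr1d1 shares 263 exonic bases with Thra on the opposite strand, and Thra was the far more abundant gene at a mean of 269 CPM. Over the 10 libraries the levels of both genes had r = 0.74 (log2 CPM, a description), and whether reads of Thra were counted for Nr1d1 was not tested.

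Nr1d2 (chromosome 14, 18204056 to 18239106), which encodes REV-ERB beta, did not follow Nr1d1. It stood at 211, 244, 310.4, 248 and 225 CPM in controls 1 to 5 and at 241, 221, 217, 273 and 222 CPM in nKO 1 to 5. Control 3, the lowest library for Nr1d1, was the highest for Nr1d2, and control 1, the second highest for Nr1d1, was the lowest. After the length correction control 3 stayed highest for Nr1d2 at 301 CPM, while control 1 stood at 228 CPM and nKO 5 was lowest at 213 CPM. The groups overlapped, with a log2 fold change of -0.08 (SE 0.10, edgeR adjusted p = 0.916).

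Ciart (chromosome 3, 95878500 to 95882257), which encodes the repressor also known as CHRONO, had 16.3, 17.0, 9.47, 16.0 and 16.5 CPM in controls 1 to 5. In nKO 1 to 5 it had 21.5, 23.8, 15.5, 10.8 and 6.77 CPM. The other controls lay within 16.0 to 17.0 CPM and control 3 was below them, whereas the nKO libraries spread over the whole range, from the highest to the lowest value of all 10. The log2 fold change was 0.06 (SE 0.30, edgeR adjusted p = 0.984).

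The 3 Period genes encode the negative limb that acts with the cryptochromes. Per1 (chromosome 11, 69095108 to 69109965) had 52.5, 33.0, 17.9, 40.7 and 34.1 CPM in controls 1 to 5 and 67.9, 50.7, 38.9, 23.6 and 25.2 CPM in nKO 1 to 5. It was lowest in control 3 and highest in nKO 1, with overlapping groups and a log2 fold change of 0.21 (SE 0.33, edgeR adjusted p = 0.931). After the length correction control 1 dropped to 36.3 CPM and nKO 4 came up to 31.4 CPM, while control 3 stayed lowest at 19.9 CPM and nKO 1 highest at 65.6 CPM.

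Per2 (chromosome 1, 91415977 to 91459351) had 29.3, 29.2, 26.0, 46.2 and 37.1 CPM in controls 1 to 5 and 51.1, 50.6, 23.9, 33.4 and 32.8 CPM in nKO 1 to 5. The highest libraries were nKO 1, nKO 2 and control 4, and nKO 3, the highest for Nr1d1, was the lowest for Per2. The log2 fold change was 0.19 (SE 0.22, edgeR adjusted p = 0.893). Per3 (chromosome 4, 150997018 to 151044707) moved within a narrow range, with 55.6, 47.9, 39.8, 52.0 and 53.3 CPM in controls 1 to 5 and 53.7, 54.0, 49.6, 46.5 and 41.6 CPM in nKO 1 to 5. Control 3 and nKO 5 were its lowest libraries in either group, and the log2 fold change was -0.02 (SE 0.10, edgeR adjusted p = 0.985).

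Arntl (chromosome 7, 113178471 to 113314126), the activator at the head of the loop, had 46.7, 53.7, 58.4, 52.4 and 58.8 CPM in controls 1 to 5. In nKO 1 to 5 it had 53.2, 50.1, 48.8, 52.4 and 71.9 CPM. One library, nKO 5, stood above the other 9, which lay between 46.7 and 58.8 CPM. The log2 fold change was 0.03 (SE 0.11, edgeR adjusted p = 0.978).

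Npas2 (chromosome 1, 39193702 to 39363240), which can take the place of CLOCK in forebrain neurons, had 27.8, 23.6, 15.8, 27.7 and 24.3 CPM in controls 1 to 5 and 28.1, 27.3, 28.9, 24.8 and 32.9 CPM in nKO 1 to 5. Control 3 was lowest and nKO 5 highest, and the other 8 libraries of both groups lay between 23.6 and 28.9 CPM. Cry1 (chromosome 10, 85131700 to 85185054), the cryptochrome whose peak comes late, had the smallest fold range of the 10 genes in uncorrected CPM. The range of Per3 was smaller in TPM (1.34-fold beside 1.44-fold for Cry1) and in corrected CPM (1.32-fold beside 1.34-fold). Cry1 had 19.5, 21.0, 22.7, 21.0 and 20.4 CPM in controls 1 to 5 and 21.8, 19.8, 17.6, 23.4 and 24.3 CPM in nKO 1 to 5. Its highest library was again nKO 5 and its lowest nKO 3, and its log2 fold change was 0.03 (SE 0.10, edgeR adjusted p = 0.978).

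Animal nKO 5 combined low levels of several day genes with high levels of the 3 night genes. It was above control 3 for Nr1d1, Per1 and Per3, and above nKO 4 for Per1. It was lowest of all 10 libraries for Dbp and Ciart and highest for Arntl, Npas2 and Cry1. Relative to the median of the other 9 libraries, its CPM was 0.512 for Dbp, 0.415 for Ciart, 0.649 for Per1, 0.657 for Nr1d1 and 0.801 for Per3. The same ratio was 1.37 for Arntl, 1.21 for Npas2 and 1.16 for Cry1. Per2 (0.981) and Nr1d2 (0.924) were close to the other libraries before the correction. With it, Per2 was at 0.918 and Nr1d2 at 0.892, and nKO 5 was then the lowest library for Nr1d2 at 213 CPM. On corrected values the ratio was 0.509 for Dbp, 0.434 for Ciart, 1.37 for Arntl, 1.26 for Npas2 and 1.13 for Cry1, whereas Per1 (0.747) and Nr1d1 (0.711) lay nearer to the other libraries than before the correction. In TPM, Dbp was 0.778 of Arntl in nKO 5 and 1.55 to 2.57 times Arntl in the other 9 libraries.

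Control 3 was displaced in another way. It was the lowest library for Nr1d1 (0.449 of the median of the others), Per1 (0.461), Per3 (0.766) and Npas2 (0.570), and the second lowest for Ciart (0.581) and Per2 (0.778). It was the highest for Nr1d2 (1.38). Dbp (0.960) stood close to the other libraries. Arntl (1.12) and Cry1 (1.08) in control 3 each ranked 8th from the lowest of the 10 libraries, with lower ratios than in nKO 5 (1.37 and 1.16). The low day genes of control 3 were thus not joined by low Dbp or by high Npas2, as they were in nKO 5. Control 3 was also the deepest library and the lowest in the activity-regulated and glucocorticoid-responsive lists described below; the part of these in its clock gene levels was not tested.

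**Figure D2:**
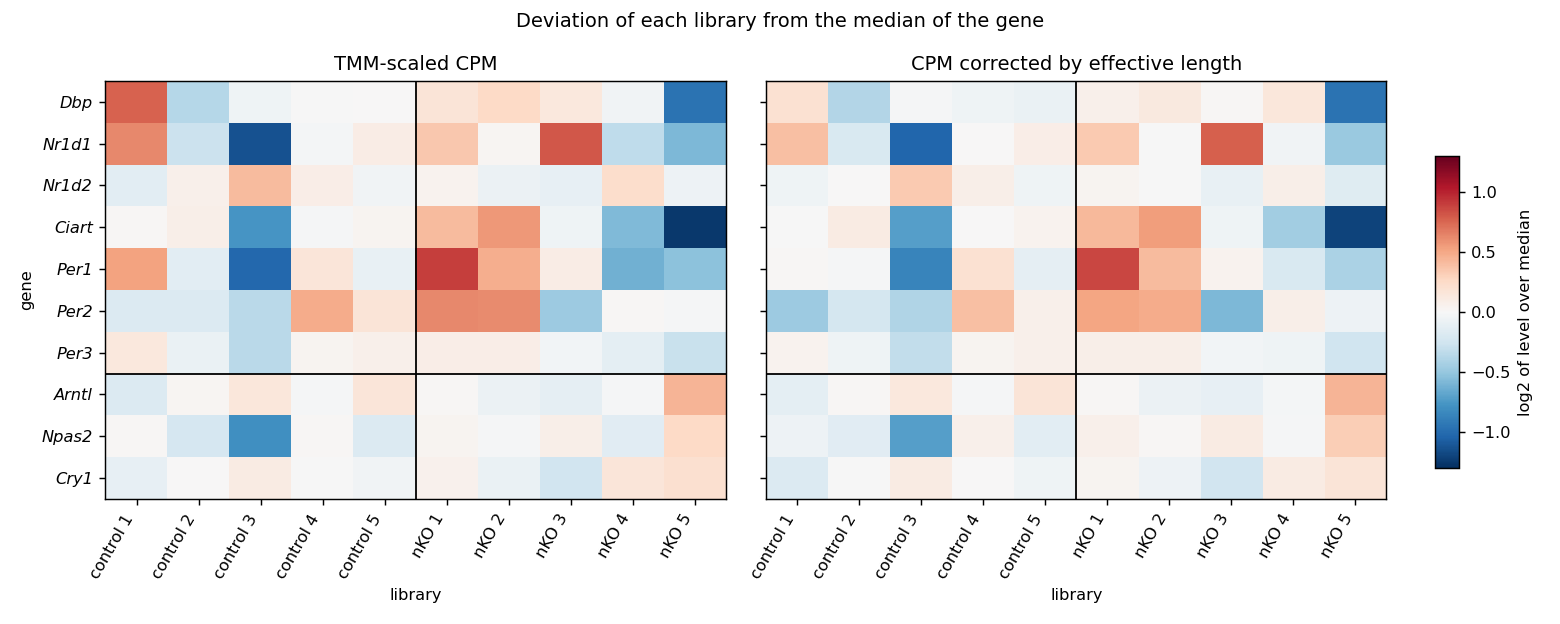
Deviation of each library (columns, 5 control then 5 nKO) from the median of each gene (rows, day genes above the line and night genes below) as log2 of the ratio, red for above and blue for below, for TMM-scaled CPM (left) and CPM corrected by effective length (right). On both scales nKO 5 is blue for Dbp, Nr1d1, Ciart, Per1 and Per3 and red for the 3 night genes; the deviations of Dbp and Per1 in control 1 and of Per1 in nKO 4 are smaller on the corrected scale.

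As a summary of the state of each library, the mean log2 CPM of the 7 day genes minus that of the 3 night genes was taken, without a test. Controls 1 to 5 had differences of 0.73, 0.33, 0.11, 0.50 and 0.45. In nKO 1 to 5 the differences were 0.73, 0.73, 0.54, 0.19 and -0.43. The lowest was nKO 5, followed by control 3. The value 0 marks no point of the cycle, since it depends on the genes chosen and on their lengths. The controls averaged 0.42 ± 0.23 and the nKO libraries 0.35 ± 0.49 (SD over 5 animals), and without nKO 5 the remaining nKO libraries averaged 0.55 ± 0.26 (SD over 4 animals). The groups overlapped, and the nKO mean lay below the control mean with nKO 5 and above it without. Corrected values averaged 0.40 ± 0.16 for the controls and 0.37 ± 0.45 for nKO (SD over 5 animals), with nKO 5 at -0.39.

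**Figure D3:**
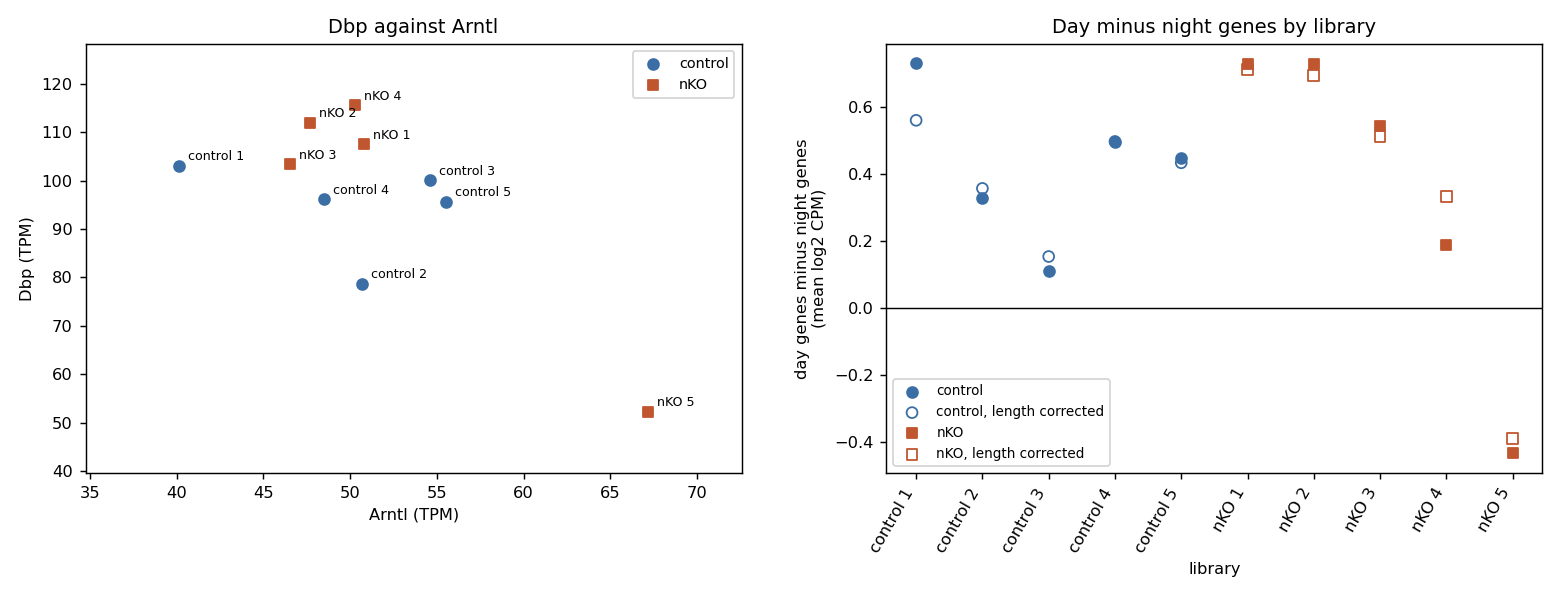
Left, Dbp against Arntl in TPM, 1 point per library, with axes that do not start at 0; right, the mean log2 CPM of the day genes minus that of the night genes in each library, filled for TMM-scaled CPM and open for the length-corrected values, controls as circles and nKO as squares. Library nKO 5 lies apart at 52.3 TPM of Dbp and 67.2 TPM of Arntl, and is the lowest library at right, where the line at 0 marks no point of the cycle.

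Whether the genes moved together between libraries was tested over all 45 pairs by Pearson's r on log2 CPM, with a two-sided permutation test and Benjamini-Hochberg adjustment over the pairs. The threshold of 5% was passed by 7 pairs, 5 of them positive and 2 negative. For each pair, the share of tested genes with a larger absolute r with its first gene was also taken. It was 0.292% for Ciart with Per3 and for Dbp with Arntl, 0.911% for Ciart with Per1 and 1.23% for Per1 with Per3. The share was larger for Nr1d1, at 5.83% with Per3, 7.73% with Per1 and 8.94% with Cry1. The 5 positive pairs joined Per1, Per3, Ciart and Nr1d1, all of them day genes. Per1 and Per3 had the highest r at 0.89 (p = 0.00023, adjusted p = 0.0104; Spearman's rho 0.92, p = 0.00054, adjusted p = 0.0155). Ciart and Per3 followed with r = 0.87 (p = 0.00163, adjusted p = 0.0300; rho 0.77, p = 0.0121). Both genes were low in control 3 and nKO 5, and without these 2 libraries r was 0.68 (n = 8, exact permutation p = 0.0620). Per1 and Per3 kept r = 0.86 without control 3 and nKO 1, the libraries farthest from the median of Per1 (n = 8, exact permutation p = 0.00446).

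Ciart and Per1 had r = 0.82 (p = 0.00333, adjusted p = 0.0300; rho 0.71, p = 0.0262). Nr1d1 and Per3 had r = 0.82 (p = 0.00269, adjusted p = 0.0300; rho 0.78, p = 0.0102), and Nr1d1 and Per1 had r = 0.80 (p = 0.00608, adjusted p = 0.0456; rho 0.79, p = 0.00865). Without the 2 libraries farthest from the median of the first gene of each pair these 3 values were 0.82, 0.91 and 0.84, with exact permutation p of 0.0208, 0.000670 and 0.0105 (n = 8). No motif was found in all 4 of these genes in the windows printed above: Ciart and Per1 held E-boxes, Nr1d1 an E-box-like match and Per3 D-boxes.

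The negative pairs were Dbp with Arntl and Nr1d1 with Cry1, each a day gene with a night gene. Dbp and Arntl had r = -0.87 (p = 0.00253, adjusted p = 0.0300; rho -0.73, p = 0.0199). Without control 1 and nKO 5 it was -0.40 (n = 8, exact permutation p = 0.333), so the size of r depended on those 2 libraries. On corrected values r was -0.85 (permutation test, adjusted p = 0.0787) and rho -0.82. With nKO 5 also left out, the corrected r was -0.45 and rho -0.75. Nr1d1 and Cry1 had r = -0.79 (p = 0.00744, adjusted p = 0.0478; rho -0.83, p = 0.00464), and -0.75 without control 3 and nKO 3 (n = 8, exact permutation p = 0.0336). Of the rho values, 2 of 45 passed the adjusted threshold, those of Per1 with Per3 and of Dbp with Per3 (rho 0.90, adjusted p = 0.0155). On corrected values 0 of 45 passed, with rho at 0.82 for Per1 with Per3 and at 0.44 for Dbp with Per3.

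Some pairs of one phase had a negative r. Nr1d1 and Nr1d2, repressors with shared targets, had r = -0.76 (p = 0.0108, adjusted p = 0.0539; rho -0.72, p = 0.0226). It was -0.42 without control 3 and nKO 3, and -0.90 without nKO 5, where it passed the threshold (n = 9, exact permutation, adjusted p = 0.0200). On corrected values r was -0.60 (rho -0.37; permutation test of r, adjusted p = 0.206), and -0.89 without nKO 5 (exact permutation, adjusted p = 0.0490). Arntl and Npas2, both of the positive limb, had r = -0.01 over all libraries and -0.70 without nKO 5 (n = 9, exact permutation p = 0.0221, adjusted p = 0.0620). Across phases, Nr1d2 and Npas2 had r = -0.81 (p = 0.00966, adjusted p = 0.0539), which was -0.34 without control 3 and nKO 4. Of the 24 pairs within a phase 16 were positive, with a median r of 0.54. Of the 21 pairs across phases 13 were negative, with a median r of -0.54. These medians count each gene in 9 pairs and carry no test.

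The number of pairs past the threshold depended on the correction and on single libraries. On corrected values 2 of the 7 pairs stayed past it, Ciart with Per3 (r = 0.88, adjusted p = 0.0394) and Per1 with Per3 (r = 0.83, adjusted p = 0.0394). With 1 library left out between 0 and 8 pairs passed; the count was 0 without control 4 or without nKO 2, 1 without nKO 1 or nKO 4, 2 without control 1 and 4 without control 2. Of the 8 pairs without nKO 5 only 3 were among the 7, namely Ciart with Per1, Ciart with Per3 and Per1 with Per3. The other 5 were Nr1d1 with Nr1d2 and Npas2, Nr1d2 with Per3 and Cry1, and Per1 with Npas2. Among these, Npas2 ran with the day genes Nr1d1 (r = 0.89) and Per1 (r = 0.81). Without control 3 and nKO 5 together it was 0, at 8 libraries and a smallest adjusted p of 0.211. Deviations from the mean of the own genotype gave 8 pairs, the same 7 among them, with the difference between genotypes removed.

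**Figure D4:**
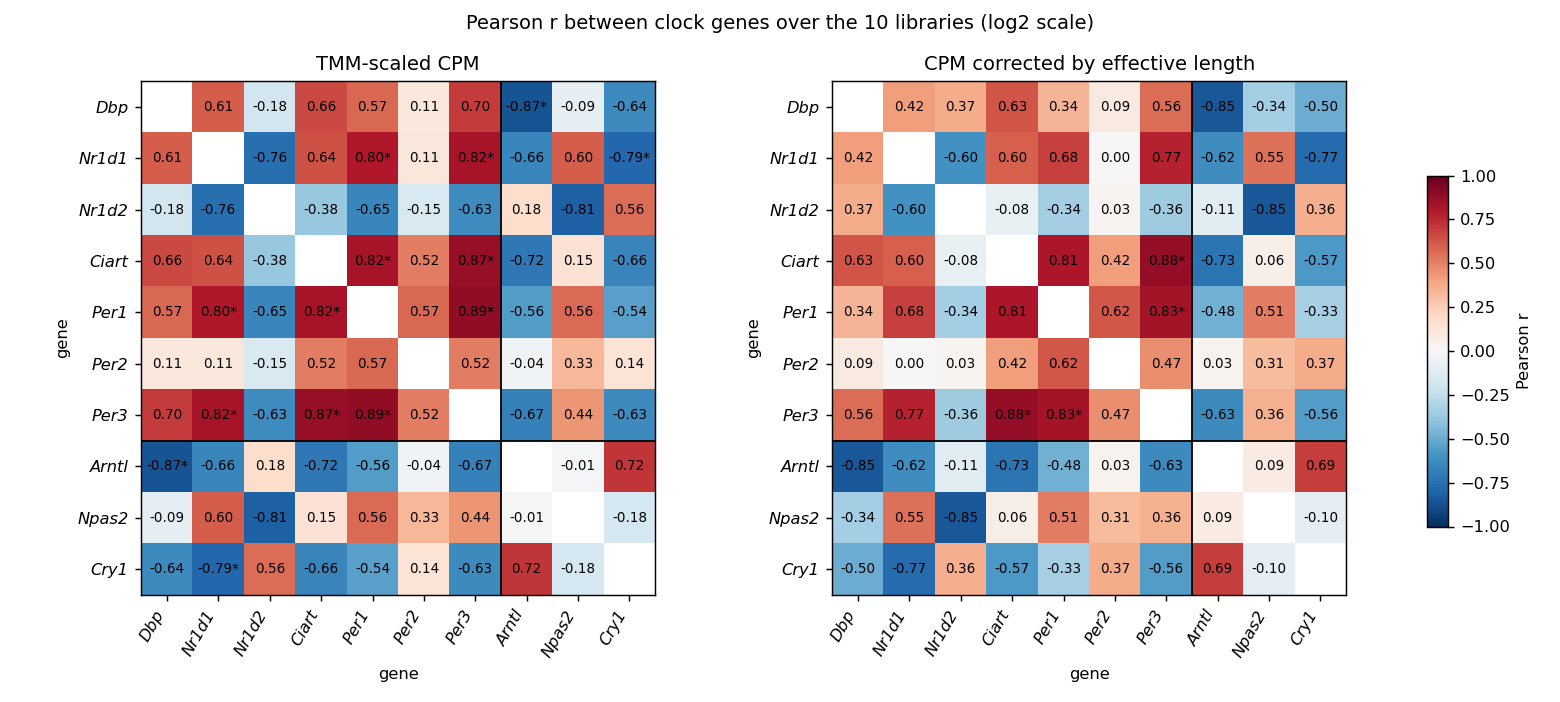
Pearson r of each pair of clock genes over the 10 libraries (rows and columns, day genes before the lines and night genes after), red for positive and blue for negative, on log2 TMM-scaled CPM (left) and on values corrected by effective length (right). An asterisk marks an adjusted p under 0.05, reached by 7 pairs at left and 2 at right; Per1, Per3, Ciart and Nr1d1 form the block of high values.

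Between the genotypes 0 of the 10 clock genes passed the edgeR adjusted threshold of 5%, which 0.0139% of all tested genes passed (2 of 14378, Atad3a and Fam155a). At an unadjusted p under 0.05 it was 0 of 10, beside 5.65% of all genes. It was 1 of 10 without control 1 (Npas2) and 2 of 10 without control 1 and nKO 4 (Npas2 and Nr1d2). The smallest edgeR adjusted p of the 10 genes in these fits was 0.727 and 0.519. The share of all genes at this threshold in these fits is not given here, so these counts cannot be set beside 5.65%. The DESeq2 Wald test and limma-voom called 0 of 10 as well. In 0 of the 10 genes were the groups without overlap in CPM, beside 1.38% of all genes. The estimate was higher in nKO for 7 genes and lower for 3, beside 47.8% of all genes higher, and the median log2 fold change of the 10 genes was 0.05, beside -0.01 over all tested genes. None of these shares sets the 10 genes apart.

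The closest to a difference was Npas2, which averaged 23.9 ± 4.90 CPM over the controls and 28.4 ± 2.96 CPM over the nKO animals (SD, 5 each). That is 0.25 on the log2 scale, with an SE of 0.14, a 95% interval from -0.05 to 0.56 and an edgeR adjusted p of 0.825. With effective length offsets it was 0.28 (interval 0.03 to 0.54, unadjusted p = 0.0337, edgeR adjusted p = 0.505), in a fit where 9.7% of all genes had an unadjusted p under 0.05 and 0.0139% were called. Without offsets it was 0.13 without control 3 and 0.07 without control 3 and nKO 5. It was 0.31 without control 1 (unadjusted p = 0.0439, edgeR adjusted p = 0.727), and 0.35 without control 1 and nKO 4 (unadjusted p = 0.0331, edgeR adjusted p = 0.519). In the fit without control 1 and nKO 4, Per1 stood at 0.54, Nr1d1 at 0.49 and Nr1d2 at -0.20 (unadjusted p = 0.0467, edgeR adjusted p = 0.533). In the fit with offsets 8 of 10 genes were higher in nKO, beside 48.0% of all genes, and Dbp was at -0.01.

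What the design could exclude differed between the genes. The 95% interval lay within a 1.5-fold change in either direction for Nr1d2, Per3, Arntl, Cry1 and Npas2, which is 5 of 10, beside 75.7% of all genes. For Per1 it ran from 0.700-fold to 1.93-fold, for Nr1d1 from 0.699-fold to 1.84-fold, for Ciart from 0.664-fold to 1.65-fold, for Dbp from 0.626-fold to 1.30-fold and for Per2 from 0.823-fold to 1.59-fold. In this fit of all libraries without offsets, all 10 intervals lay within a 2-fold change. Its median SE was 0.18 for the 10 genes and 0.12 for all tested genes. Without control 1 and nKO 4 the log2 fold change was 0.54 for Per1 (SE 0.34) and 0.49 for Nr1d1 (SE 0.34). Intervals of fits with libraries left out are not given here, so the 2-fold limit is not stated for them.

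**Figure D5:**
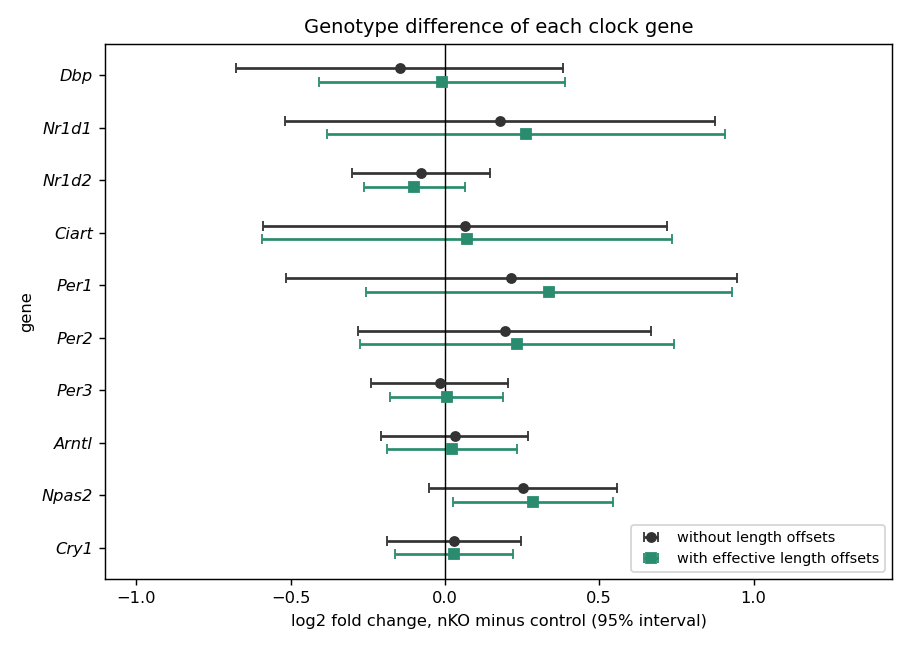
Log2 fold change of nKO over control (x axis) for each clock gene (y axis) with its 95% interval from edgeR, without (circles) and with effective length offsets (squares). The line marks no change; each interval includes it except that of Npas2 with offsets, which starts at 0.03, and without offsets the intervals of Per1, Nr1d1, Ciart and Dbp are the widest.

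The levels of all 10 clock genes were set beside 5 other measures of each library, in 50 relations adjusted together, of which 3 passed 5%. Per1 followed the mean log2 CPM of 20 activity-regulated genes (r = 0.82, p = 0.00106, adjusted p = 0.0210; rho 0.81, p = 0.00723, adjusted p = 0.0402). Without control 3 and nKO 4 it was 0.63 (n = 8, exact permutation p = 0.0988), and on corrected values with all libraries it was 0.79. Per1 also followed the 14 glucocorticoid-responsive genes tested (r = 0.87, p = 0.00126, adjusted p = 0.0210; rho 0.82, p = 0.00579, adjusted p = 0.0362), with 0.72 without control 3 and nKO 1 (n = 8, exact permutation p = 0.0507). Fkbp5, Tsc22d3, Sgk1 and Cdkn1a of the glucocorticoid-responsive list are also among the clock output genes listed below. Whether Per1 followed the activity-regulated and the glucocorticoid-responsive list separately was not tested. Control 3 was the lowest library in both lists, at means of 3.96 and 3.94 log2 CPM beside 4.92 to 5.82 and 4.11 to 4.75 in the other libraries. In nKO 5 both lists lay inside the range of the other libraries, at 5.52 and 4.30.

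Npas2 had r = -0.96 with the log10 total count (p = 0.00068, adjusted p = 0.0210; rho -0.83, p = 0.00447, adjusted p = 0.0362). The deepest library, control 3, was the lowest for Npas2 and the shallowest, nKO 5, the highest. Without these 2 libraries r was -0.71 (n = 8, exact permutation p = 0.0578), and on corrected values with all libraries it was -0.93. By rho alone, 6 further relations passed, all with the first principal component: Nr1d1 (-0.89), Dbp (-0.84), Per1 (-0.83) and Per3 (-0.82) ran against it and Nr1d2 (0.88) and Cry1 (0.83) with it. On corrected values Pearson's r with this component was weaker for Per1 (-0.46 beside -0.76), Nr1d2 (0.47 beside 0.75) and Dbp (-0.29 beside -0.66), and stood at 0.72 beside 0.63 for Cry1. The part of depth and of this component in the levels of these genes was not tested.

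Of 25 other genes of the loop, from the partner Clock and the ROR activators to the kinases and ligases that time the PER and CRY proteins, all were tested and 0 were called by edgeR. Of these, 19 were higher in nKO and 6 lower, beside 47.8% of all genes higher. Their median log2 fold change was 0.09, beside -0.01 over all genes. An unadjusted p under 0.05 was reached by 2 of the 25, beside 5.65% of all genes. Prkaa2, the AMPK subunit whose complex phosphorylates CRY proteins, averaged 123 ± 7.23 CPM over controls and, without overlap, 145 ± 11.1 CPM over nKO animals (SD, 5 each); the groups did not overlap in 1.38% of all genes. Its log2 fold change was 0.24 (SE 0.07, edgeR adjusted p = 0.820). The other 3 with the smallest p were Sfpq, a PER-associated RNA-binding protein (log2 fold change 0.21), Tef, a relative of Dbp (-0.13), and Gsk3b, a kinase of several clock proteins (0.16). Clock itself averaged 237 ± 20.2 CPM over controls and 254 ± 21.1 CPM over nKO animals (SD, 5 each), and was named after its values were seen.

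Of 20 listed names of output genes that follow the clock in many tissues, Ccrn4l and Gm129 were not found. Ccrn4l is an older symbol of Noct, which is also listed, and Gm129 one of Ciart, 1 of the 10 clock genes. The other 18 names were found. Of these 16 were tested and 0 were called by edgeR, with 10 higher and 6 lower in nKO. At an unadjusted p under 0.05 there were 0, and the median log2 fold change was 0.07. Over all genes 47.8% were higher, 5.65% had an unadjusted p under 0.05 and the median was -0.01. The 4 with the smallest p were Pfkfb3, a regulator of glycolysis (0.30), Tspan4, a tetraspanin (-0.35), Hif3a, a hypoxia-inducible factor (0.45), and Noct, which encodes nocturnin (0.09). In nKO 5, the library with low Dbp, Pfkfb3 was highest at 52.2 CPM beside 26.0 to 40.6 CPM in the other 9 libraries, and Tspan4 was lowest at 3.76 CPM beside 4.50 to 8.82 CPM.

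The genes whose pattern over the 10 libraries was most like that of Dbp, among 13717 genes outside the 10 with a mean of at least 1 CPM, were Pacs1 (r = 0.94), Msi1 (0.91), Rps6kl1 (0.91), Srrm4 (0.91) and Adck1 (0.90). All 5 were highest in control 1 and lowest in nKO 5, as Dbp was. For Arntl they were Car2 (0.92), Ide (0.90), March11 (0.90), Ell2 (0.90) and Rps27l (0.89), all highest in nKO 5. Ide stood at 122 CPM there and at 64.2 to 96.8 CPM in the other 9 libraries. On corrected values Pacs1 ranked 7th for Dbp and the other 4 between 12th and 35th, whereas 4 of the 5 genes for Arntl stayed among the first 5. These are descriptions over 10 libraries of which 1 or 2 carry the pattern.

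The 10 genes had 15 RefSeq transcripts in the tables, of which 12 passed the filter and 0 were called between genotypes by edgeR, as were 0.0% of 22343 transcripts. For 7 genes there was 1 transcript. Arntl was divided between NM_007489, at 35.3 ± 5.31 TPM in controls and 42.4 ± 5.75 TPM in nKO, and NM_001357070, at 14.6 ± 6.08 and 9.88 ± 3.01 TPM (SD, n = 5 each). In nKO 5, where Arntl was highest, they stood at 52.1 and 15.1 TPM, the former the highest of the 10 libraries and the latter inside the range of the others. Per3 was divided unevenly, with NM_011067 between 4.75 and 24.2 TPM and NM_001289877 listed at 0 in 6 libraries, so its division between isoforms is uncertain while its sum was steady.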

How the data were processed

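Cortex RNA of 10 mice was sequenced, 5 per genotype as labelled, with no batch or pairing named. Salmon, bcl2fastq, DESeq2 and mm10 appear in the submitters' processing notes without versions or roles. Per the file headers, the authors deposited for each library estimated counts, TPM and effective lengths per gene and per transcript. The authors' effective lengths vary between libraries for the same gene. A table of scores for 22 genes was not used here.

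Estimated counts were rounded and filtered by filterByExpr (minimum count 10, minimum total 15). Groups were compared with edgeR 4.0.16 in R 4.3.3 (quasi-likelihood, TMM, robust), adjusted over all tested genes at 5%. The SE was the estimate over the square root of F. Alternatives used DESeq2 1.42.0, limma 3.58.1, other filters and scalings, transcript sums, effective length offsets and libraries left out. Correlations used log2 CPM (prior count 2) and 100000 resamples, or all orders where n was 9 or less. Tested on simulated counts of 14283 genes, the edgeR fit found 56 of 100 simulated 1.5-fold changes and 87 of 100 at 2-fold, and made 5 false calls. Exon overlaps came from GENCODE, and names, positions and promoters from RefSeq GRCm38.p6.

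The 10 genes and all lists were chosen with earlier results of these data known. Named were the 10 genes, Atad3a, the 4 genes with the smallest p among the other clock genes and among the output genes, and the 5 genes with the highest r with Dbp and with Arntl. Tissue markers came from fixed lists; Clock, Fam155a, Thra and Sphk2 fall outside this rule and were named after their values were seen. Corrected values beyond the offsets, and fits without nKO 5 with offsets or without control 3 and nKO 5, were chosen after seeing the data.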

Additional observations from a re-analysis of the deposited data

Results flagged for a closer look

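Within each genotype the gap from the highest or lowest animal to its nearest neighbour was divided by the range of the group and compared with 0.71, Dixon's limit for 5 values, which chance passes in about 1 in 20 groups. Of 22 groups checked on CPM 3 passed. Dbp stood at 51.1 CPM in control 1, against 23.2 to 30.1 CPM in the other controls. Ciart stood at 9.47 CPM in control 3, against 16.0 to 17.0 CPM. Arntl stood at 71.9 CPM in nKO 5, against 48.8 to 53.2 CPM in the other nKO animals.

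On values corrected by effective length the high Dbp of control 1 no longer passed. Ciart in control 3 (9.65 CPM against 15.9 to 17.1 CPM) and Arntl in nKO 5 (71.5 CPM against 49.1 to 53.3 CPM) still did. Dbp in nKO 5 passed on this scale, at 16.4 CPM against 32.3 to 35.2 CPM in the other nKO animals.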

How the results depend on the processing

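Under all 21 alternatives the number of clock genes called between genotypes was 0, with adjusted p from 0.505 to 0.999 where a value was given. The number of all genes called was 2, 5 by the DESeq2 Wald test, 3 without nKO 1 and 0 without control 3 and nKO 5. The sign of a clock gene's log2 fold change was kept in 182 of 210 alternatives and turned in 28; all values lay between -0.25 and 0.54. Without control 1 and nKO 4 the log2 fold change was 0.067 for Dbp, 0.036 for Per3, -0.0073 for Arntl and -0.039 for Cry1, while the estimate went from 0.21 to 0.54 for Per1, 0.18 to 0.49 for Nr1d1, 0.25 to 0.35 for Npas2 and -0.08 to -0.20 for Nr1d2. With effective length offsets it was 0.0060 for Per3, and with offsets and without nKO 5 it was 0.14 for Dbp, 0.058 for Per3, -0.085 for Arntl and -0.011 for Cry1. Without control 3 and nKO 5 it was 0.031 for Nr1d2 and -0.054 for Arntl, and by limma-voom it was -0.017 for Ciart. With 1 library left out it ranged from -0.25 to 0.072 for Dbp, -0.055 to 0.40 for Nr1d1, -0.15 to 0.017 for Nr1d2, -0.14 to 0.25 for Ciart, -0.039 to 0.40 for Per1, -0.088 to 0.036 for Per3, -0.080 to 0.066 for Arntl and -0.020 to 0.085 for Cry1. Only Per2 (0.068 to 0.34) and Npas2 (0.13 to 0.31, and 0.072 without control 3 and nKO 5) kept their sign under all 21 alternatives.

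The 7 correlated pairs became 2 on TPM, 2 on corrected values, 4 on these without nKO 5, 1 without control 1 and nKO 4, 0 without control 3 and nKO 5, and 0 to 8 with 1 library left out, not always the same pairs: 3 of the 8 without nKO 5, 6 of the 8 without nKO 3, 5 of the 6 without control 3 and 3 of the 4 on corrected values without nKO 5 were among the 7; the cause was not tested, though fewer libraries also mean fewer orders to permute. No r of the 7 pairs changed sign. The difference between day and night genes ran from -0.18 to 0.13 for nKO minus control under the 18 alternatives, so its sign was not kept. Each value stayed within 1 SD of the main one, but the SDs between animals were 0.23 for controls and 0.49 for nKO. A limit that wide cannot show a steady difference. Depth limited Ciart most, at 98.6 counts in its lowest library. The labels pair no animals.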
